A study of Mus musculus with 6 samples.

Results

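Hlf and 9 genes of the circadian clock and its output were followed through pulldowns of RNA that had been labelled at the start of quiescence in mouse neural progenitor cells. The set holds the proline and acidic amino acid-rich basic leucine zipper (PAR-bZIP) factors Hlf, Dbp and Tef, their relative Nfil3, the period genes Per1, Per2 and Per3, the nuclear receptors Nr1d1 and Nr1d2, and Clock. It was drawn by name, as 10 of the 55416 Ensembl gene IDs in the count table, except that Hlf was chosen by its CPM values, which set its EU libraries apart from its PBS libraries. The values of Hlf are therefore a description and carry no test. The cells came from embryonic brain and were kept quiescent with 20 ng/ml BMP4 and 10 ng/ml FGF2. In the EU group, 5-ethynyluridine, a uridine analogue that is built into new RNA, was given at 250 µM on day 1 of quiescence. In the PBS group, vehicle was given in its place. RNA of both groups was taken on day 8, and labelled RNA was coupled to biotin and caught on streptavidin beads, so that the PBS libraries show binding in the absence of label. Each group had 3 libraries, and the labels do not say whether they came from separate cultures, so that any p-value measures the spread between these libraries only.

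The mammalian clock is a loop of transcription factors. CLOCK pairs with BMAL1 and activates genes through E-boxes, among them the Per and Cry genes, whose proteins then repress CLOCK and BMAL1, and the Nr1d genes, whose REV-ERB proteins repress Bmal1. Dbp, Tef and Hlf are outputs of this loop whose proteins activate genes through D-boxes, and NFIL3 represses genes through the same element. HLF is also known from blood, where it marks and maintains quiescent hematopoietic stem cells. Many clock messenger RNAs are known for short half-lives.

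The libraries differed in depth. EU libraries held 9564856 to 26479031 counts and PBS libraries 413181 to 729649, so that 3 counts were worth 0.105 to 0.377 CPM in EU and 3.84 to 6.33 CPM in PBS (CPM, counts scaled to a common library size with the TMM factors of edgeR unless library totals are named). Of the defining markers of neural progenitors all 10 had counts in EU, and the list summed to 2029 to 2949 CPM in EU and 2295 to 3048 CPM in PBS. Astrocyte markers summed to 6204 to 11387 CPM in EU and 9291 to 16605 CPM in PBS, and of these markers Gfap (344 ± 307 CPM in EU, 3600 ± 3282 CPM in PBS) and Aqp4 (662 ± 178 CPM in EU, 1387 ± 455 CPM in PBS; SD, n = 3 each) lay below PBS in all EU libraries. Of the 7 astrocyte markers, 4 had a higher and 3 a lower fitted level in EU, with a median log2 fold, EU over PBS, of 0.18. Oligodendrocyte lineage markers summed to 1163 to 1765 CPM in EU and 702 to 906 CPM in PBS, with no overlap on the TMM scale. Most of this sum was Olig1, at 842 to 1340 CPM in EU and 488 to 657 CPM in PBS, whose groups overlapped over library totals. Of the 6 tested markers of this list, 3 had a higher and 3 a lower fitted level in EU, with a median log2 fold of 0.22. Neuron markers summed to 534 to 661 CPM in EU and 555 to 797 CPM in PBS. Most of this sum was Map2, at 507 to 612 CPM in EU and 532 to 576 CPM in PBS. Dcx averaged 28.9 CPM in EU and 106 CPM in PBS. Tubb3, Rbfox3, Snap25, Syt1 and Stmn2 each averaged at most 7.44 CPM in EU and 9.66 CPM in PBS. The part of these cell type markers in the values below was not tested. The 6 microglia markers summed to at most 0.503 CPM in EU and 1.58 CPM in PBS, with Aif1, Cx3cr1, Csf1r and C1qa at 0 in every library, and the 6 vascular and fibroblast markers at most 2.73 CPM in EU and 3.16 CPM in PBS. One EU library stood apart in markers of dividing cells. The 6 cycling markers summed to 230.2, 956 and 237 CPM in EU replicates 1 to 3, and to 71.0, 236 and 147 CPM in PBS replicates 1 to 3. Because these are bulk samples, fewer cells of a type and less RNA per cell cannot be told apart. Between EU and PBS, neither can be told apart from the difference between labelled RNA and binding without label.

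Hlf lay well above its PBS level in every EU pulldown. Hlf (ENSMUSG00000003949, chromosome 11) measured 344, 197 and 397 CPM in EU replicates 1 to 3, against 71.0, 71.8 and 56.3 CPM in PBS replicates 1 to 3. The lowest EU library, replicate 2, stood above every PBS library, and the PBS libraries differed little among themselves. The means were 313 ± 103 CPM in EU and 66.3 ± 8.75 CPM in PBS libraries (SD, n = 3 each), a ratio of 4.71. The fitted log2 fold, EU over PBS, was 2.24 ± 0.33 (SE), which lay 2.09 above the median log2 fold of all 12477 genes tested. That median was 0.15 and shifted by -0.17 when libraries were scaled by their totals alone. Of all genes tested, 10.2% had a larger fold than Hlf. In raw counts, Hlf reached 2735, 5634 and 8657 in EU and 45, 34 and 44 in PBS. At the mean share Hlf held in EU, the PBS libraries would have held 187, 119 and 211 counts. Together the PBS libraries held 23.8% of that number. Over library totals, the 95% exact Clopper-Pearson intervals of the PBS shares were 50.7 to 93.0, 57.0 to 115 and 43.8 to 81.0 CPM in replicates 1 to 3, and they cover counting error only.

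**Figure D1:**
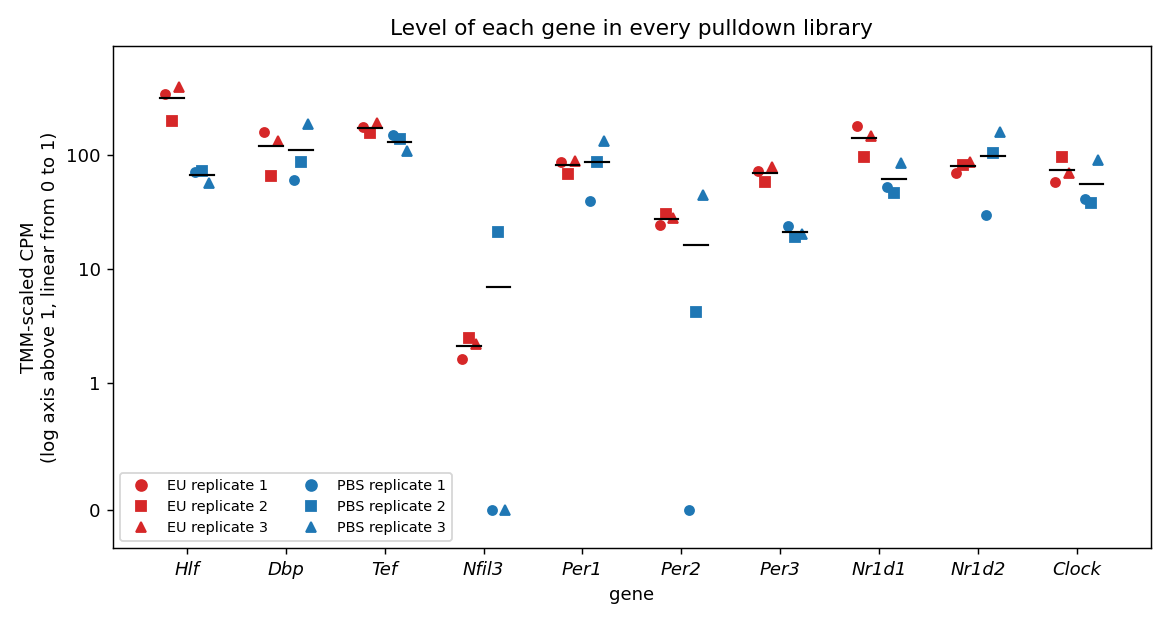
TMM-scaled CPM of the 10 genes in each library, on an axis that is logarithmic above 1 and linear from 0 to 1, with EU libraries in red left of PBS libraries in blue and a line at each group mean. For Hlf the EU libraries lie between 197 and 397 CPM, above the PBS libraries at 56.3 to 71.8 CPM, whereas for Dbp, Nfil3, Per1, Per2, Nr1d2 and Clock the groups overlap.

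The closest relatives of Hlf had smaller fitted folds, and the difference between them and Hlf was not tested. Tef (ENSMUSG00000022389, chromosome 15), a PAR-bZIP activator first described in the thyrotrophs of the pituitary, measured 174, 157 and 189 CPM in EU replicates 1 to 3, against 148, 137 and 107 CPM in PBS replicates 1 to 3. Every EU library of Tef lay above every PBS library with TMM factors, but the groups overlapped over library totals. The log2 fold of Tef was 0.41 ± 0.25 (SE; edgeR adjusted p = 0.498). Dbp (ENSMUSG00000059824, chromosome 7), the PAR-bZIP factor of the albumin promoter in liver, measured 159, 65.4 and 133 CPM in EU, against 60.0, 86.6 and 185 CPM in PBS. Its highest and its lowest value both came from PBS libraries, replicates 3 and 1. Dbp had a fitted log2 fold of 0.10 ± 0.49 (SE; edgeR adjusted p = 0.957), and its sign turned with DESeq2 size factors (-0.0047), with library totals alone (-0.14) and without PBS replicate 1 (-0.15), EU replicate 1 (-0.22) or EU replicate 3 (-0.04).

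Ratios between relatives within a library do not depend on how libraries are scaled. There were 1.97, 1.26 and 2.10 Hlf counts for each Tef count in EU replicates 1 to 3, against 0.479, 0.523 and 0.524 in PBS replicates 1 to 3. Hlf therefore gave more counts than Tef in each EU library and fewer in each PBS library. Hlf counts for each Dbp count numbered 2.16, 3.02 and 2.99 in EU, against 1.18, 0.829 and 0.303 in PBS. The ranges of the groups were separate for both ratios, and both rest on Hlf, which was chosen for this contrast. Tef counts for each Dbp count, a ratio without Hlf, ran from 1.09 to 2.39 in EU and from 0.579 to 2.47 in PBS and overlapped.

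**Figure D2:**
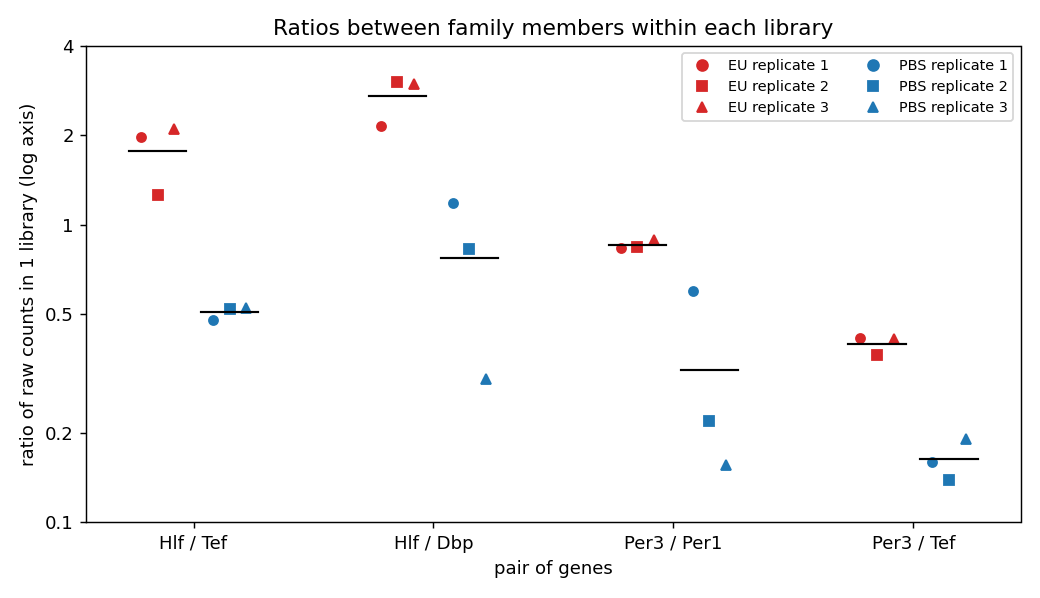
Ratio of the raw counts of 2 genes within each library, on a log axis, with EU libraries in red left of PBS libraries in blue and a line at each group mean. Hlf per Tef lies between 1.26 and 2.10 in EU and between 0.479 and 0.524 in PBS, and Per3 per Tef between 0.366 and 0.416 in EU and between 0.138 and 0.19 in PBS. Only pairs with separate groups are drawn, all with Hlf or Per3 as the first gene. Ratios whose groups overlapped, such as Tef per Dbp, Per3 per Per2 and Nr1d1 per Nr1d2, are not drawn.

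Nfil3 (ENSMUSG00000056749, chromosome 13), the repressor that competes at D-boxes, was hardly present. It measured 1.63, 2.49 and 2.2 CPM in EU, from 13, 71 and 48 counts, against 0, 21.1 and 0 CPM in PBS, from 0, 10 and 0 counts. All its PBS counts lay in replicate 2. At its mean EU share the PBS libraries together would have held 3.63 counts, so that this depth could hardly measure a level as low as that in EU. PBS replicate 2 alone held 10 counts, where that share would have given 0.837. The log2 fold of -1.52 ± 1.25 (SE; edgeR adjusted p = 0.638) came to 7.68 without PBS replicate 2, where no PBS count was left.

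Among the period genes, which encode the repressors of the clock loop, Per3 lay above PBS while Per1 and Per2 overlapped. Per3 (ENSMUSG00000028957, chromosome 4) measured 72.5, 57.3 and 78.3 CPM in EU replicates 1 to 3, against 23.7, 19.0 and 20.5 CPM in PBS replicates 1 to 3. No EU library came near a PBS library, and the spread within each group was small, at 69.4 ± 10.8 CPM in EU libraries and 21.0 ± 2.39 CPM in PBS libraries (SD, n = 3 each). The log2 fold of Per3 was 1.72 ± 0.39 (SE), with an edgeR adjusted p of 0.103, which misses the threshold of 0.05. Those PBS values rest on 15, 9 and 16 counts, where the mean EU share would have given 42.0, 26.8 and 47.4. DESeq2 gave Per3 a log2 fold of 1.62 ± 0.35 (SE; adjusted p = 0.000348), in a fit that called 4.09% of all genes higher in EU.

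Per1 (ENSMUSG00000020893, chromosome 11), a period gene that light and cyclic AMP induce quickly, measured 86.7, 68.1 and 88.2 CPM in EU, against 39.5, 86.6 and 132 CPM in PBS. The EU libraries agreed closely, and the PBS libraries spread by a ratio of 3.34 from lowest to highest and enclosed them. Per1 had a fitted log2 fold of -0.09 ± 0.43 (SE; edgeR adjusted p = 0.953), and 0.44 without PBS replicate 3. Per2 (ENSMUSG00000055866, chromosome 1), whose protein is a core repressor of CLOCK and BMAL1, measured 24.5, 30.5 and 28.1 CPM in EU, against 0, 4.22 and 44.7 CPM in PBS. The PBS values of Per2 rest on 0, 2 and 35 counts and lie on both sides of the EU values (log2 fold 0.71 ± 1.15 SE; edgeR adjusted p = 0.848). Without PBS replicate 3 the log2 fold of Per2 was 3.95. Within a library, there were 0.836, 0.843 and 0.888 Per3 counts for each Per1 count in EU, against 0.6, 0.220 and 0.155 in PBS, and the groups did not overlap. Per3 counts for each Per2 count overlapped, at 1.88 to 2.96 in EU, against 4.5 and 0.457 in PBS replicates 2 and 3, and PBS replicate 1 had no Per2 count.

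The promoter windows of Hlf, Per3 and Nr1d1 are shown because the EU libraries of these 3 genes lay above PBS under both scalings, and that of Per1 because it is the relative of Per3 whose groups overlapped. Each window runs from 250 bases before to 50 bases after a RefSeq transcript start and is taken from RefSeq on build GRCm38.p6, whereas the counts were made on GRCm39. A GENCODE M21 transcript start was matched by sequence in each window of these genes except that of Nr1d1. Letters are in capitals where they match the E-box CACGTG, the D-box TTANGTAA or AGGTCA, the half-site of ROR and REV-ERB receptors, each searched on both strands. None of these 3 motifs overlap in the windows shown. The windows are chr11:90390868-90391167 (minus strand) for Hlf, chr4:151044616-151044915 (minus strand) for Per3, chr11:98775328-98775627 (minus strand) for Nr1d1 and chr11:69098699-69098998 (plus strand) for the first of 2 windows of Per1.
Hlf: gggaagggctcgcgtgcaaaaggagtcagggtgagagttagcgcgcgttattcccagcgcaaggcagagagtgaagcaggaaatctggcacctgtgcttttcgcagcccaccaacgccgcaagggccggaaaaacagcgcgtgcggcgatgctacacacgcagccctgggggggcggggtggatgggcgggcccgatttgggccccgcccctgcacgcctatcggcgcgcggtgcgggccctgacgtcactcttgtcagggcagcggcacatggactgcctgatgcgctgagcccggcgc
Per3: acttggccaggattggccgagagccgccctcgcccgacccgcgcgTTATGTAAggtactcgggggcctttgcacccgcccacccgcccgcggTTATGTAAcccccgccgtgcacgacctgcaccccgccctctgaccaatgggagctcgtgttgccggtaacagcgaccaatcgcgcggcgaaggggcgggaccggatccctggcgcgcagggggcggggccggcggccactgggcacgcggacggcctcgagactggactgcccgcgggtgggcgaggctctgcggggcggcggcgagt
Nr1d1: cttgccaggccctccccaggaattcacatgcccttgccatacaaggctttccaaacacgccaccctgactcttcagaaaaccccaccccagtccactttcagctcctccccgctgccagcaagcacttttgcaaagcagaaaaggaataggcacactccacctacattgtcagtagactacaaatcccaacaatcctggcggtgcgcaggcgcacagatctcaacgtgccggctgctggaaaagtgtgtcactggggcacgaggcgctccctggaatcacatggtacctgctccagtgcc
Per1: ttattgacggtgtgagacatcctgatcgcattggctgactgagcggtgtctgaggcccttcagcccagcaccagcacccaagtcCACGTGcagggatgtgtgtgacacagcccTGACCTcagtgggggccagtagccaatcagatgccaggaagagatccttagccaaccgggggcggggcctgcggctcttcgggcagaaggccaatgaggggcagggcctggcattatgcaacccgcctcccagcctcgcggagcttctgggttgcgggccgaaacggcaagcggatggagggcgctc
The Per3 window held 2 D-box matches, both reading TTATGTAA, at 205 and 158 bases before the start and 47 bases apart. Among 32851 RefSeq windows, 2.32% held at least 1 D-box match and 0.0822% held 2 or more. The Per1 window shown held 1 E-box, a motif found in 7.15% of all windows, and 1 half-site, found in 16.3%. The second Per1 window held no match to any of these motifs. The Hlf and Nr1d1 windows held none of these letters. The 9 genes with a window had 13 windows together, whereas the shares above are per window. Of these 9 genes, Per3 was the 1 with a D-box match, Tef and Per1 were the 2 with an E-box match, and Nfil3, Per1, Nr1d2 and Clock were the 4 with a half-site match. Per2 has no entry in the table. A match is a description of letters and was not read as a bound site.

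The REV-ERB genes, whose proteins repress Bmal1 and Nfil3, gave separate groups for Nr1d1 and overlapping groups for Nr1d2. Nr1d1 (ENSMUSG00000020889, chromosome 11), which encodes REV-ERB alpha, measured 180.0, 96.5 and 147 CPM in EU replicates 1 to 3, against 52.1, 46.4 and 85.7 CPM in PBS replicates 1 to 3. The groups of Nr1d1 did not overlap, although EU replicate 2 and PBS replicate 3 were close. Its log2 fold was 1.19 ± 0.37 (SE; edgeR adjusted p = 0.139). Nr1d2 (ENSMUSG00000021775, chromosome 14), which encodes REV-ERB beta, measured 69.0, 82.2 and 87.3 CPM in EU, against 30.0, 103 and 160 CPM in PBS. The PBS libraries of Nr1d2 enclosed the EU libraries, with a ratio of 5.33 between the highest and the lowest. Nr1d2 had a fitted log2 fold of -0.30 ± 0.52 (SE; edgeR adjusted p = 0.859), and 0.34 without PBS replicate 3. Nr1d1 counts for each Nr1d2 count ran from 1.17 to 2.61 in EU and from 0.449 to 1.74 in PBS, and the groups overlapped.

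Clock (ENSMUSG00000029238, chromosome 5), the activating partner of BMAL1, measured 58.4, 94.99 and 68.9 CPM in EU, against 41.0, 38.0 and 89.5 CPM in PBS. One PBS library, replicate 3, lay within the EU range and the other two below it. Clock had a fitted log2 fold of 0.39 ± 0.43 (SE; edgeR adjusted p = 0.762), and 0.97 without PBS replicate 3. Its partner Bmal1, named here after its values were seen, measured 27.8, 36.3 and 31.6 CPM in EU, against 15.8, 21.1 and 11.5 CPM in PBS. The groups of Bmal1 did not overlap with TMM factors but did over library totals, and its log2 fold was 1.0 ± 0.56 (SE; edgeR adjusted p = 0.455).

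Counted together, no gene of the 9 other than Hlf passed the edgeR test in either direction, where 0% of all genes tested were called higher and 0.024% lower. All 10 genes passed the filter on low counts. At an unadjusted p below 0.05, Per3 and Nr1d1 were higher, 2 of the 9, where 12.6% of all genes were higher at that p. Limma-voom, limma-voom with group weights and edgeR with the replicate number as a block called 0 of the 9, where they called 1.78%, 5.79% and 1.15% of all genes higher in EU. DESeq2 called 1, Per3, where it called 4.09% higher. Hlf was chosen for this contrast and is left out of the next counts. With TMM factors the EU libraries lay above all PBS libraries for Tef, Per3 and Nr1d1, 3 of the 9, where they did for 21.8% of all genes. Over library totals they did for Per3 and Nr1d1, 2 of the 9, where they did for 16.6% of all genes. None of the 9 lay below PBS in all EU libraries with TMM factors, where 6.4% of all genes did. The median log2 fold of the 9 genes other than Hlf was 0.39, beside 0.15 for all genes tested.

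**Figure D3:**
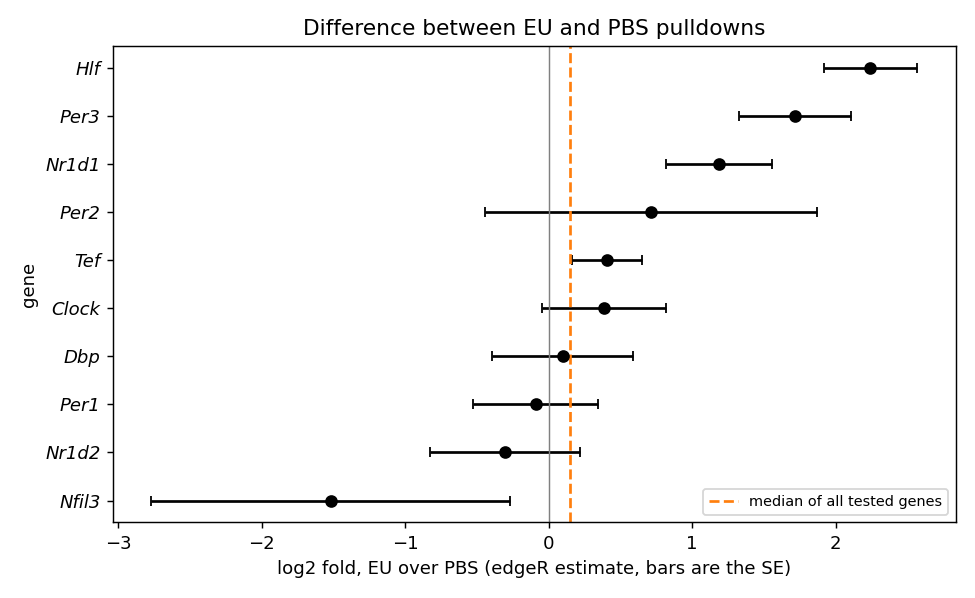
Log2 fold, EU over PBS, of each gene as estimated by edgeR, with bars of 1 SE and a dashed line at the median of all tested genes, 0.15. Hlf (2.24), Per3 (1.72) and Nr1d1 (1.19) lie furthest to the right, and the bars of Per2 and Nfil3 are the widest.

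Individual libraries recurred as the extremes. PBS replicate 3 was the highest PBS library for Dbp, Per1, Per2, Nr1d1, Nr1d2 and Clock, 6 of the 10 genes, where it was the highest for 31.5% of all genes tested. With TMM factors, EU replicate 2 was the lowest EU library for Hlf, Dbp, Tef, Per1, Per3 and Nr1d1, again 6 of the 10, where it was the lowest for 38.5% of all genes. Over library totals, EU replicate 2 was the lowest for Hlf, Dbp and Nr1d1 only. EU replicate 1 was then the lowest for Tef, Per1 and Per3, as it was under both scalings for Nfil3, Per2, Nr1d2 and Clock. It held 145, 72.1 and 60.3 CPM of Tef, Per1 and Per3 over library totals, against 169, 73.4 and 61.8 CPM in EU replicate 2. The share of all genes was not counted over library totals. EU replicate 2 also held the highest sum of cycling markers, 956 CPM against 230.2 and 237 CPM in EU replicates 1 and 3, and the part of this in the values above was not tested. Without EU replicate 2 the log2 fold was 2.43 for Hlf, 1.78 for Per3 and 1.34 for Nr1d1.

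Levels of different genes were compared per kilobase of exon. In EU, Hlf averaged 46.8 ± 15.5 CPM per kilobase, Nr1d1 45.9 ± 13.7 and Dbp 39.8 ± 16.2 (SD, n = 3), and these 3 genes overlapped with one another. Tef followed at 22.0 ± 2.06 CPM per kilobase, overlapping with the lowest library of Dbp. Nr1d2 at 14.7 ± 1.75 and Per1 at 14.4 ± 1.99 CPM per kilobase overlapped and lay below Tef in every EU library. Per3 (7.22 ± 1.13), Clock (5.40 ± 1.37) and Per2 (4.73 ± 0.516 CPM per kilobase) formed a lower step in which neighbours overlapped, and Nfil3 was last at 1.04 ± 0.214. In PBS the order differed. There Dbp led at 37.0 ± 22.1 CPM per kilobase, Hlf came sixth at 9.93 ± 1.31 and Per3 last at 2.19 ± 0.249, and all neighbours overlapped apart from Hlf and Clock. With the longest transcript as the length, Dbp came to 64.9 CPM per kilobase in EU, above Hlf at 55.4.

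**Figure D4:**
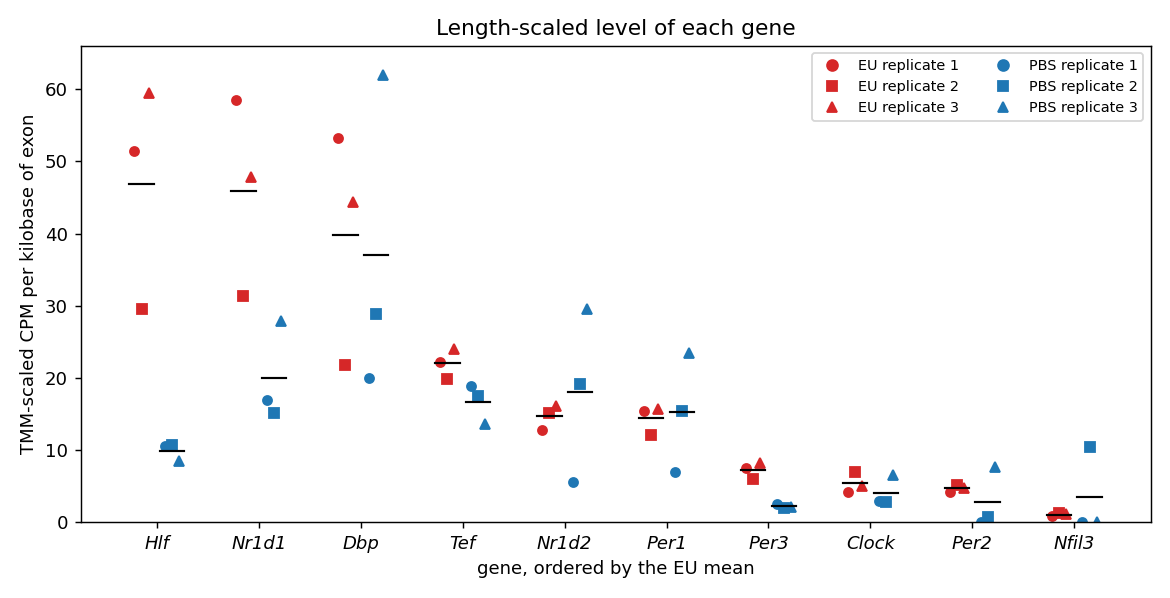
TMM-scaled CPM per kilobase of exon for each gene in each library, ordered by the EU mean, with EU libraries in red left of PBS libraries in blue and a line at each group mean. Hlf and Nr1d1 average 46.8 and 45.9 in EU and 9.93 and 20.0 in PBS, and Dbp 39.8 in EU and 37.0 in PBS.

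Some of these genes share exonic bases with neighbours in GENCODE release M21, and the strand setting of the counting is not given in the sources used here. Reads of such pairs therefore cannot be told apart with certainty. Nr1d1 shares 263 exonic bases with Thra, a thyroid hormone receptor gene on the opposite strand. Thra averaged 262 ± 21.5 CPM in EU libraries and 246 ± 35.6 CPM in PBS libraries (SD, n = 3 each), with groups that overlapped. Dbp shares 539 exonic bases with Sphk2, a sphingosine kinase gene on the opposite strand, which averaged 23.9 ± 1.23 CPM in EU libraries and 26.4 ± 14.9 CPM in PBS libraries. Per3 lies within the span of Camta1, with 0 exonic bases shared, and Camta1 averaged 23.4 ± 6.94 CPM in EU libraries and 56.8 ± 14.96 CPM in PBS libraries, the opposite order to Per3.

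The longest annotated transcripts differ in their number of uridines, the base that EU replaces. Hlf has 1616 uridines, 28.6% of its bases and more than 85.4% of the tested genes, whose median is 883. Per3 has 1460 (24.3%), Nr1d1 605 (22.2%), Tef 1111 (25.2%) and Dbp 357 (19.4%). Clock and Nr1d2, whose groups overlapped, have 2869 (29.4%) and 1374 (29.5%). The genes with separate groups thus lay on both sides of the median of all genes in uridine number, and the part of uridines in the folds was not tested.

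The wider clock pathway was described by a list of 25 further genes, of which 24 passed the filter on low counts. In the edgeR fit 0 of the 24 passed in either direction, where 0% of all genes passed as higher and 0.024% as lower. A positive fold was found for 20 of the 24 and for 56.5% of all genes (7053 of 12477), and the median log2 fold was 0.66, beside 0.15 for all genes. At an unadjusted p below 0.05, 4 were higher (Bmal2, Npas2, Rora and Csnk1d) and 0 lower, where 12.6% of all genes were higher and 4.03% lower. Of these, Bmal2 had no PBS count, as did 5.54% of all genes tested, and Npas2 had 3. Both passed the filter through their EU counts and could hardly come out lower. They also enter the median and the other counts of this list. DESeq2 called 1 higher, Csnk1d, in a fit that called 4.09% of all genes higher, and limma-voom with group weights called 1, Bmal2, in a fit that called 5.79% of all genes higher in EU. The EU libraries lay above all PBS libraries for 9 of the 24 with TMM factors, where they did for 21.8% of all genes, and for 4 over library totals, where they did for 16.6%. Rorb, a nuclear receptor that activates through the same half-site on which REV-ERB proteins repress, had the highest CPM of the list, at 390 ± 45.5 CPM in EU libraries and 394 ± 61.6 CPM in PBS libraries (SD, n = 3 each), and the groups overlapped. Its relative Rora averaged 128 ± 9.84 CPM in EU libraries and 82.9 ± 15.4 CPM in PBS libraries (log2 fold 0.63 ± 0.27 SE; edgeR adjusted p = 0.300). Csnk1d, a kinase that phosphorylates PER proteins, averaged 128 ± 7.16 CPM in EU libraries and 79.7 ± 11.8 CPM in PBS libraries (log2 fold 0.69 ± 0.26 SE; edgeR adjusted p = 0.228). Its relative Csnk1e averaged 55.0 ± 6.996 CPM in EU libraries and 69.0 ± 38.9 CPM in PBS libraries.

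Bhlhe41 and Bhlhe40, E-box repressors also called DEC2 and DEC1, measured 133 ± 9.79 and 76.8 ± 17.2 CPM in EU, against 94.1 ± 44.3 and 72.1 ± 33.3 CPM in PBS, and the groups of both overlapped. Cry2, a cryptochrome that represses with PER proteins, averaged 88.2 ± 23.8 CPM in EU libraries and 60.6 ± 18.4 CPM in PBS libraries. The other cryptochrome gene, Cry1, named after its values were seen, averaged 23.4 ± 1.03 CPM in EU libraries and 9.75 ± 8.68 CPM in PBS libraries, where it had 8, 0 and 13 counts. Its EU libraries lay above its PBS libraries under both scalings, and its log2 fold was 1.21 ± 0.97 (SE; edgeR adjusted p = 0.629). The ubiquitin ligase subunit Fbxw11, which targets PER proteins, measured 106 ± 0.608 CPM in EU, against 105 ± 15.9 CPM in PBS. The deubiquitinase gene Usp2, a clock output, averaged 86.7 ± 5.62 CPM in EU libraries and 63.4 ± 12.6 CPM in PBS libraries (edgeR adjusted p = 0.564), with groups that were separate with TMM factors and overlapped over library totals. Bmal2 had no PBS count and 2.66 ± 0.211 CPM in EU, a level below the 3.84 to 6.33 CPM that 3 counts were worth in PBS. Npas2, which can stand in for CLOCK, had 14.1 ± 5.99 CPM in EU and 3 PBS counts, all in replicate 1. Wee1 and Timeless, which also act in the cell cycle, measured 49.5 and 35.0 CPM in EU replicate 2, where the cycling markers were highest, and 14.2 and 7.04 CPM in EU replicate 1. Their PBS counts all lay in PBS replicate 3, at 57.5 and 17.9 CPM, and the part of dividing cells in these values was not tested.

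Of 7 genes known as targets of PAR-bZIP factors, chiefly from mouse liver and brain, 3 passed the filter. In the edgeR test 0 of these 3 passed, where 0% of all genes passed as higher and 0.024% as lower. Por, which encodes cytochrome P450 reductase, averaged 77.5 ± 21.9 CPM in EU libraries and 42.9 ± 18.9 CPM in PBS libraries (SD, n = 3 each; edgeR adjusted p = 0.434). Alas1, the first enzyme of heme synthesis, averaged 36.7 ± 3.18 CPM in EU libraries and 69.2 ± 39.2 CPM in PBS libraries (edgeR adjusted p = 0.371), and all its EU libraries lay below its PBS libraries. The liver genes Cyp2a5, Cyp2b10 and Cyp7a1 had no count in any library.

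Per3 was among the genes whose profile over the 6 libraries was most like that of Hlf. Likeness was the root-mean-square distance between log2 profiles, each centred on its own mean, over 10656 genes with a mean of at least 5 CPM, and smaller means more alike. The 5 nearest genes were Pcsk1n (0.256), Pld3 (0.262), Gm22009 (0.310), Per3 (0.327) and Arel1 (0.339). Pcsk1n, which encodes proSAAS, an inhibitor of a prohormone convertase, averaged 163 ± 35.9 CPM in EU libraries and 44.8 ± 3.76 CPM in PBS libraries (SD, n = 3 each). Pld3, a lysosomal nuclease of the phospholipase D family, averaged 80.0 ± 23.6 CPM in EU libraries and 23.8 ± 4.06 CPM in PBS libraries. Nr1d1 ranked 123 of 10656 in this order, Tef 1053 and Dbp 3238. The order is a description over 6 libraries and includes the EU and PBS contrast by which Hlf was picked.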

How the data were processed

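RNA was measured in 3 EU and 3 PBS pulldown libraries, called here by group and replicate number. The authors deposited 1 table of whole-number read counts per Ensembl gene ID, with no normalization, and 0 rows name no gene. Tools listed in the submitters' processing notes, with no roles, are featureCounts 2.0.1, STAR 2.7.10b, UMI-tools 1.1.2 and bcl2fastq 2.20.0, and the genome listed is GRCm39. The handling of reads with several matches is not given in the sources used here. Gene IDs were paired with symbols (52083 of 55416 matched), lengths and transcripts of GENCODE release M21, used by ID only. Replicates of a group differed by far more than sampling noise.

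The genes and lists were chosen with earlier results of these data known. Genes were tested on the counts with R 4.3.3 and edgeR 4.0.16 (quasi-likelihood, robust), with TMM factors, filterByExpr (12477 genes kept), group as the only term, and Benjamini-Hochberg adjustment over all tested genes with a threshold of 0.05. The list genes named were the 10 and the 2 with the highest mean CPM, since none passed, beside genes counted in the text. Of these, 1 is not reported here. The SE of an edgeR log2 fold was derived from its test, as the fold without its sign divided by the square root of the quasi-likelihood F statistic. Likeness to Hlf used log2 (CPM + 0.5). Alternatives were the replicate block, other scalings and filters, each library left out, DESeq2 1.42.0, limma-voom of limma 3.58.1 with and without group weights, and other lengths. The fits were tested on simulated data. Figures and tables were made in Python 3.11.15.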

Additional observations from a re-analysis of the deposited data

How the results depend on the processing

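Hlf, Tef, Per2, Per3, Nr1d1 and Clock kept a positive log2 fold under all 15 alternatives run for each, with ranges of 1.98 to 2.43, 0.23 to 0.57, 0.17 to 3.95, 1.54 to 1.87, 0.93 to 1.57 and 0.11 to 0.97. The median log2 fold of all genes in a fit also moved, from -0.53 with DESeq2 to 1.23 without a low-count filter. Hlf, Per3 and Nr1d1 lay above that median in every fit. Hlf was chosen for this contrast in the same libraries, so that its sign and place are a description only. Tef, Per2 and Clock lay below it in some fits. With the replicate number as a block the median was 0.54, above Tef (0.41) and Clock (0.46). The sign of Dbp turned with DESeq2 size factors (-0.0047), library size alone (-0.14) and limma-voom (-0.053). The sign turned with the replicate number as a block for Nfil3 (0.57) and Per1 (0.037), and without a low-count filter for Per1 (0.052). With each library left out in turn, log2 folds ran from -0.22 to 0.77 for Dbp, -2.11 to 7.68 for Nfil3, which was tested in 3 of these 6 fits, -0.38 to 0.44 for Per1 and -0.67 to 0.34 for Nr1d2. The cause was not tested.

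Of all genes, edgeR called 0 higher and 3 lower in EU. The calls were 3 higher and 32 lower with library size alone, 82 and 262 without a low-count filter, 627 and 592 with DESeq2, 222 and 25 with limma-voom, and 723 and 37 with its group weights. With a library left out, 0 were higher and 0 to 10 lower (10 without EU replicate 1, 0 without any 1 PBS library). Of the 9 genes other than Hlf, DESeq2 called 1, Per3 (log2 fold 1.62), and of the clock list DESeq2 and limma-voom with group weights called 1 each.

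With the replicate number as a block, 144 genes were called higher and 50 lower, and 0 of the 9 genes. Libraries with the same number had weak positive correlations of their deviations across genes (0.095, 0.073 and 0.039), and those with different numbers ran from -0.075 to -0.0020. Each library thus correlated best with its own number. With PBS libraries this shallow, such correlations cannot decide whether the numbers mark pairs. The labels name no pairs, and the main fit used none. The fit with the block changed no other call on these genes.

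With the longest transcript as the length, EU levels per kilobase came to 64.9 for Dbp, 39.3 for Tef, 17.3 for Per1, 11.6 for Per3, 17.0 for Nr1d2 and 7.60 for Clock. The depth of PBS limits the genes with few counts there, chiefly Nfil3 and Per2.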
